A study of Mus musculus with 5 samples.

Results

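Molecular chaperones are the proteins that help other proteins fold, and their genes were taken here by name from a table of mouse neuroepithelial cells. A gene belonged to the set when its symbol began with Cct and a digit, Hsp90, Hspa, Hspb and a digit, Hspd1, Hspe1, Hsph1, Dnaja, Dnajb or Dnajc, which gave 81 of the 21801 genes in the table. The study sequenced RNA of mouse neuroepithelial cells (NECs), the dividing epithelium of the early neural tube, in 5 libraries that the labels put in 1 group as replicates 1 to 5. The series text calls the cells purified and its title places them in the developing neocortex, while the sources used here name no genotype, strain, age, treatment or means of purification. With 1 group there is no contrast between conditions, so the comparisons are of each gene with a fixed level, of genes within a library and of the libraries with each other. Whether the replicates are separate embryos is not stated, so each p-value reflects the spread between these 5 samples alone, and that spread may be technical.

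Chaperones work in relays. Hsp70 proteins hold short stretches of unfolded chain in cycles driven by ATP, J-domain proteins (the DnaJ families) deliver clients and trigger each cycle, and exchange factors such as the Hsp110 proteins release the nucleotide. Some clients pass on to Hsp90, which matures kinases and steroid receptors, or into a chaperonin, a barrel that encloses the chain, while small heat shock proteins hold damaged proteins without ATP. Dividing cells need this system to make actin and tubulin, both of which fold in the cytosolic chaperonin. Heat shock factor 1 raises many of these genes under stress, and a separate response serves the endoplasmic reticulum (ER).

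Levels are FPKM, a read count divided by transcript length in kilobases and by each 1000000 reads mapped, so that genes can be compared per length, and mean ± SD is over the 5 libraries (n = 5) throughout. FPKM summed to between 747034 and 847625 per library. The steps between the lowest values implied totals of 20.6 to 28.4, in units of 1000000 reads. Pearson's r of log2(FPKM + 1) across genes lay between 0.990 and 0.997 over the 10 pairs of libraries, where genes are not independent replicates. Counts of markers are read against all 19706 genes tested, of which 52.3% lay above 1 FPKM and 41.4% below (limma, adjusted p under 0.05). Of the neuroepithelial markers, 11 of 12 lay above 1 FPKM and none below, led by Prom1 and with a summed level of 327 to 419 FPKM. Markers of other cells had lower sums, but the lists differ in size, so the sums do not give the share of other cells. The median marker stood at 14.2 ± 3.09 FPKM for neuroepithelium, 10.1 ± 2.35 for surface ectoderm, 4.23 ± 2.28 for mesenchyme and 1.30 ± 0.35 for neurons. By mean level, Krt18 of surface ectoderm (62.3 FPKM), Tubb3 of neurons (61.6) and Lum of mesenchyme (42.6) led their lists. Each stood above the neuroepithelial Sox2 (11.6), Nes (3.55) and Sox1 (2.17). The neuroepithelial Prom1 (88.1), Otx2 (85.1) and Pax6 (64.6) stood above Krt18. The 12 mesenchyme, meninges and pericyte markers summed to 39.6, 67.5, 142, 116 and 118 FPKM in replicates 1 to 5, with 8 of 12 above 1 FPKM and 3 below, and the 8 surface ectoderm markers to 116 to 178 FPKM, with 6 above and 1 below. The 10 neuron markers summed to 88.3 to 125 FPKM, with 5 above and 5 below, close to the shares over all genes. The 5 endothelial markers summed to 5.00 to 7.96 FPKM, with Pecam1 above and 2 below. The 7 blood and microglia markers summed to 0.303 to 1.29 FPKM, with none above and 5 below, and Aif1 and Hbb-bt were listed at 0.

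Most chaperone genes were expressed, and a few of them at the very top of the range. Of the 81 members, 59 lay above 1 FPKM, 15 lay below it, 4 were called neither way and 3 were listed at 0 in all libraries (limma, Benjamini-Hochberg adjusted p under 0.05). The shares over all genes tested were 52.3% above and 41.4% below. The median member stood at 13.8 ± 1.08 FPKM, against 1.75 ± 0.05 for all tested genes. By mean level, 20 members exceeded 100 FPKM, 23 lay between 10 and 100, 18 between 1 and 10, and 17 were under 1 FPKM but above 0. Together the members held 1.94% ± 0.03 of each library's FPKM as listed, and the 10 highest of them held 76.4% ± 0.71 of that. Both shares count the 3 members listed at 0 as 0. The families differed widely: the median gene stood at 1418 ± 104 FPKM for the pair Hspd1 and Hspe1, 1077 ± 70.2 for Hsp90, 491 ± 48.6 for Cct, 48.2 ± 2.36 for Dnaja, 14.0 ± 1.03 for Dnajc, 10.2 ± 2.16 for Hspa with Hsph1, 3.86 ± 0.67 for Dnajb and 0.257 ± 0.157 for Hspb, each over members above 0 in at least 1 library.

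**Figure D1:**
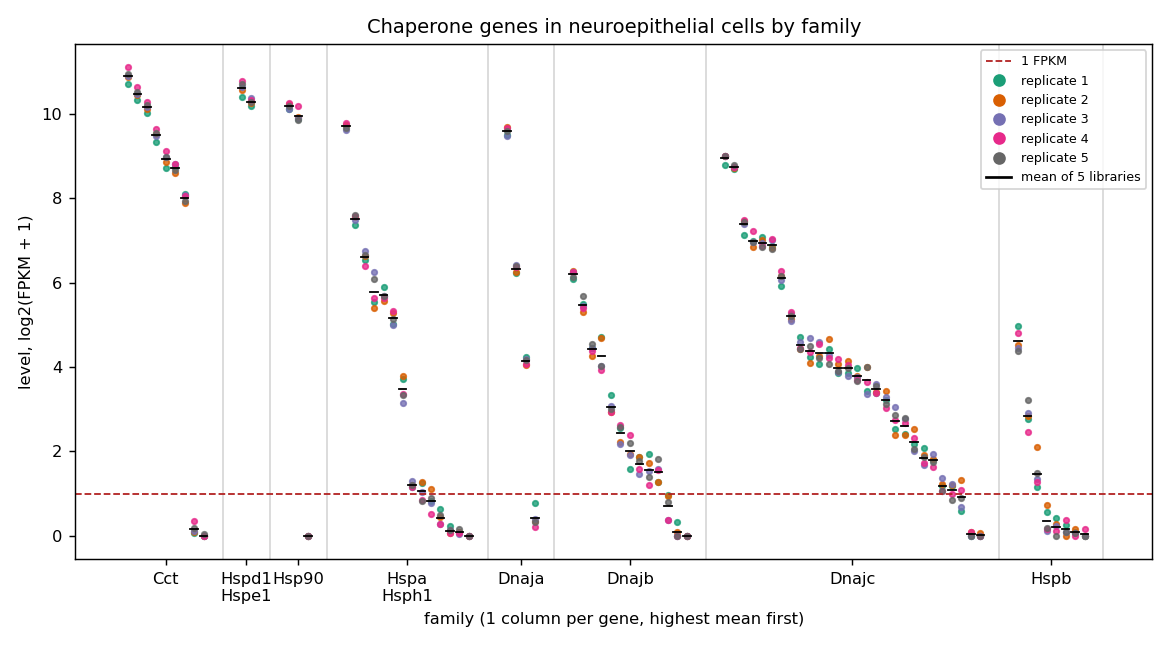
Level of each chaperone gene, as log2(FPKM + 1) on the vertical axis, with 1 column per gene grouped by family; points are the 5 libraries, black bars their mean and the dashed line 1 FPKM. The Cct, Hspd1, Hspe1 and Hsp90 genes crowd at the top apart from Cct6b, Cct8l1 and Hsp90ab1, while 5 of the 8 Hspb genes lie under the line.

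Hsp90ab1 and Hspa8, the constitutive Hsp90 and Hsp70 genes of the cytosol, and Dnajb8, a gene known mainly from testis, were the 3 members listed at 0 in every library. Cells of all kinds are known to use Hsp90ab1 and Hspa8, and 2095 genes of the table were listed at 0 throughout, so a failed estimate is possible and the value is given only as listed. The sums and medians of the Hsp90 and Hspa families therefore lack their best-known member. The 3 genes differ in how far their sequence is shared: 68.6% of the 75-base windows (the read length) of the longest coding Hspa8 transcript also occurred in annotated transcripts of other genes, against 0.736% for Hsp90ab1 and 49.5% for Dnajb8. Small RNA genes lie inside Hspa8 (3 of them) and inside neither of the others.

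The cytosolic chaperonin, called TRiC or CCT, is a double ring built from 8 different subunits, each present once per ring. Its 7 ring subunits among the members all lay above 1 FPKM, as did 52.3% of all genes tested. The remaining subunit, Tcp1, which the name rule leaves out, also lay above. As listed, Cct8 was the highest of all 81 members, with 1672, 1886, 1906, 2198 and 1970 FPKM in replicates 1 to 5. Cct5 followed with 1284, 1394, 1419, 1590 and 1457 FPKM. Both were lowest in replicate 1 and highest in replicate 4. Tcp1 had 1206, 1314, 1354, 1559 and 1386 FPKM, Cct3 1044, 1117, 1143, 1250 and 1192, and Cct7 650, 734, 716, 802 and 742. The remaining subunits were lower: Cct2 averaged 491 ± 49.3, Cct6a 422 ± 26.7 and Cct4 258 ± 15.8. Although the protein subunits are equal in number, the FPKM of their genes were not: the highest exceeded the lowest by 6.08 to 8.32 times within a library. How far capture and amplification of each gene enter such ratios, here and in the pairs below, was not tested. Cct8 was the highest and Cct4 the lowest subunit in 5 of 5 libraries. The order below Cct8 was Cct5, Tcp1, Cct3, Cct7, then Cct2 and Cct6a, then Cct4, and its 1 swap was in replicate 1, where Cct6a (425 FPKM) stood above Cct2 (423 FPKM). Over the 5 libraries the ranges of neighbours overlapped for Cct5 with Tcp1, Tcp1 with Cct3 and Cct2 with Cct6a, and did not overlap at the other steps.

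**Figure D2:**
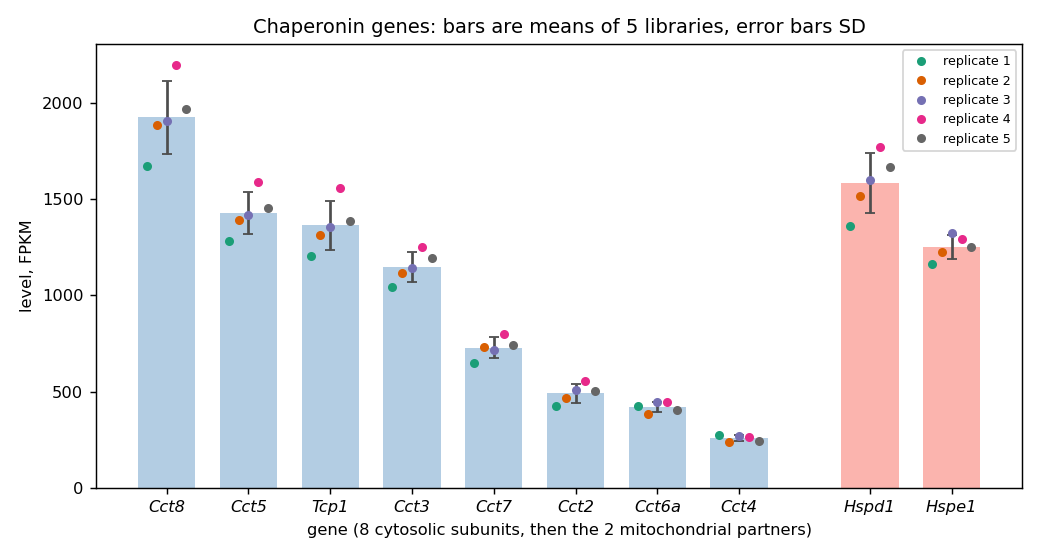
FPKM of the 8 cytosolic chaperonin subunits (blue) and of the mitochondrial chaperonin Hspd1 with its lid Hspe1 (red); bars are means of 5 libraries, error bars SD, points the libraries. Cct8 stands at 1926 ± 189 FPKM and Cct4 at 258 ± 15.8, and replicate 1 has the lowest point for Cct8, Cct5, Tcp1, Cct3, Cct7, Cct2, Hspd1 and Hspe1.

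The remaining Cct genes lay below 1 FPKM. Cct6b, a paralogue of Cct6a known mainly from testis, had 0.0551, 0.0722, 0.0917, 0.267 and 0.136 FPKM, which is worth 2.10 to 12.6 reads at the implied depth. Cct6a itself had 425, 386, 446, 447 and 404 FPKM, far above its copy in every library. Cct6b minus Cct6a was -8.55 ± 0.10 on the log2(FPKM + 1) scale. Cct8l1 was listed at 0.0247 FPKM in replicate 5, which is worth about 1 read, and at 0 in the other libraries.

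The mitochondrial chaperonin genes lay within the range of the cytosolic subunits. Hspd1, the Hsp60 barrel of the mitochondrial matrix (ENSMUSG00000025980, chromosome 1, 55077835 to 55088243 on mm10, minus strand), had 1361, 1518, 1601, 1771 and 1667 FPKM in replicates 1 to 5. Hspe1, the Hsp10 lid that closes it (ENSMUSG00000073676, chromosome 1, 55088132 to 55091307, plus strand), had 1165, 1227, 1323, 1296 and 1249 FPKM. Hspd1 was higher in all 5 libraries: Hspe1 minus Hspd1 was -0.33 ± 0.10 on the log2 scale, an FPKM ratio of 0.731 to 0.856. The genes lie head to head with starts 111 bases apart and share 112 exonic bases, whose reads cannot be assigned without strand. They are among the members that hold a long heat shock element near their start. Bases 95 to 66 before the RefSeq start of Hspe1, on the plus strand at chr1:55088053-55088082 (RefSeq, GRCm38.p6, the build also called mm10), are shown because both genes start beside them. GENCODE M21 also places these bases in a first exon of Hspd1. Capitals mark the run of heat shock element units.

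Hspe1: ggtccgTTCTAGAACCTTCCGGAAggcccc

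Heat shock factor binds adjoining units of GAA in alternating directions. The run printed above holds the pattern of 3 units, GAANNTTCNNGAA or TTCNNGAANNTTC, at 2 overlapping places. That pattern was searched on both strands in RefSeq windows from 250 bases before to 50 after each gene start, which 66 of the 81 members had. It occurred in 6 of the members' 85 windows (7.06%), belonging to Hspd1, Hspe1, Hsph1 and Dnajb6, and in 100 of 19260 windows of all genes in the table (0.519%). The shorter pattern of 2 units, GAANNTTC or TTCNNGAA, occurred in 25.9% of the members' windows and 13.6% of all windows. Windows of 1 gene and of Hspd1 and Hspe1 overlap, and a match is a description of the letters, not of binding.

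Other chaperones of the mitochondrion were lower. Hspa9, the mitochondrial Hsp70 that pulls proteins through the inner membrane, had 92.4, 98.4, 107, 83.7 and 100 FPKM. Its J-protein partner Dnaja3 had 17.9, 15.7, 17.3, 15.8 and 17.1 FPKM. Dnaja3 minus Hspa9 was -2.45 ± 0.12 on the log2 scale, and Hspa9 was the higher in 5 of 5 libraries. The import-motor proteins Dnajc19 and Dnajc15 stood at 119 ± 9.45 and 127 ± 13.4 FPKM, Dnajc11, a protein of the cristae-organizing complexes, at 167 ± 15.9 and Dnajc30, also mitochondrial, at 19.4 ± 3.29. All 8 mitochondrial members, a group made after their values were seen, lay above 1 FPKM, as did 52.3% of all genes tested. The co-chaperones Trap1, the mitochondrial Hsp90, and the exchange factors Grpel1 and Grpel2 stood at 115 ± 12.8, 69.9 ± 5.69 and 23.9 ± 1.96 FPKM.

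Of the Hsp90 genes, the cytosolic stress-responsive Hsp90aa1 (ENSMUSG00000021270) and the ER form Hsp90b1 (ENSMUSG00000020048) lay above 1 FPKM. Hsp90aa1 had 1107, 1198, 1112, 1226 and 1161 FPKM, with an SD of 0.06 on the log2 scale, percentile 5.51 among genes averaging 1 FPKM or more. Hsp90b1 had 942, 972, 964, 1165 and 921 FPKM, with replicate 4 apart from the rest. Of the 75-base windows of Hsp90aa1, 53.1% occurred in other annotated genes, most of them in Gm12346, so reads may have been divided between them and the level is uncertain. For Hsp90b1 the share was 9.71%.

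The 10 members assigned to the ER, also after their values were seen, all lay above 1 FPKM, as did 52.3% of all genes tested. Hspa5 (BiP), the ER Hsp70 (ENSMUSG00000026864, chromosome 2, 34771970 to 34777547 on mm10), had 856, 852, 785, 887 and 818 FPKM. It was about as even as Hsp90aa1, with an SD of 0.07 on the log2 scale, which is percentile 6.20 of the 10983 genes averaging 1 FPKM or more. Hsp90b1 minus Hspa5 was 0.24 ± 0.10 (log2 scale), and Hsp90b1 was the higher in all 5 libraries. The J-proteins that serve Hspa5 were far below it: Dnajc10, a disulphide reductase, stood at 68.6 ± 6.54 FPKM, Dnajb11 had 44.2, 38.8, 42.4, 41.5 and 50.3 FPKM, and Dnajc1 stood at 19.5 ± 3.3. Dnajc3 and Dnajb9, both raised by ER stress, stood at 5.13 ± 0.79 and 4.44 ± 0.78 FPKM. Dnajb11 minus Hspa5 was -4.25 ± 0.17 on the log2 scale. The ATPase Hspa13 stood at 34.8 ± 3.94 FPKM and the membrane J-proteins Dnajb14 and Dnajb12 at 18.9 ± 5.52 and 7.36 ± 1.03.

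The ER stress element, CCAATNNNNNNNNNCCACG on either strand, joins a CCAAT box to a site for ATF6. It occurred in 3 of the members' 85 RefSeq windows (3.53%), those of Hspa5, Hsp90b1 and Dnajc3, and in 29 of 19260 windows of all genes (0.151%). The CCAAT box alone, which lies within every ER stress element, was in 40.0% of the members' windows and 37.9% of all windows. The RefSeq stretches before the starts of Hspa5 (bases 70 to 41, plus strand, chr2:34772020-34772049, which 1 GENCODE M21 transcript of Hspa5 also covers) and Hsp90b1 (bases 250 to 66, minus strand, chr10:86705510-86705694) are shown because these were the highest ER genes. Capitals mark ER stress elements and CCAAT boxes on either strand, and the stretch of Hspa5 holds 1 of the long element and that of Hsp90b1 holds 2.

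Hspa5: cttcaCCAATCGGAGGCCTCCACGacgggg

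Hsp90b1: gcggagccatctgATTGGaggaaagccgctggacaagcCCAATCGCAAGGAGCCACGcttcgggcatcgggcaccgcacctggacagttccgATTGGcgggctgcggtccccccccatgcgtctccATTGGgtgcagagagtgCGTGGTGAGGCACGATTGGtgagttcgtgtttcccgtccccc

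The cytosolic Hsp70 genes with values above 0 ranged from Hspa14, at a mean of 182 FPKM, to Hspa1a, at 0.0628, while Hspa8 was listed at 0. Hspa14, an Hsp70 of the ribosome, had 163, 187, 178, 191 and 192 FPKM. Its J-protein partner Dnajc2 had 17.8, 16.2, 25.0, 19.4 and 21.6 FPKM. The proteins form 1 complex, yet Hspa14 minus Dnajc2 was 3.14 ± 0.24 on the log2 scale. A second annotated gene is also named Hspa14 and shares 5.12% of the 75-base windows. Hspa2, an Hsp70 best known from testis, lay just above the level at 1.31 ± 0.10 FPKM (log2 difference 0.20, SE 0.07, limma adjusted p = 0.0180), and it was not called without replicate 3 or without replicate 5 (limma adjusted p = 0.0555 and 0.0556, the range over single omissions starting at 0.0274). Hspa12b and Hspa12a, distant relatives of Hsp70, were called neither way at 1.09 ± 0.31 and 0.79 ± 0.26 FPKM. Without replicate 2, Hspa12a was called below the level (log2 difference -0.24, limma adjusted p = 0.0258, against 0.0882 with all 5 libraries).

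The heat-inducible Hsp70 genes were close to 0. Hspa1a (ENSMUSG00000091971, chromosome 17, 34969190 to 34972156 on mm10) had 0.0665, 0.0581, 0.0245, 0.0534 and 0.111 FPKM, which is worth 1.40 to 7.11 reads at the implied depth. Its near copy Hspa1b had 0.174, 0.0440, 0.0931, 0.0542 and 0.0997 FPKM, worth 3.00 to 10.4 reads. Both lay below 1 FPKM, by 0.91 and 0.87 on the log2 scale (SE 0.02 for Hspa1a, limma adjusted p = 3.7e-09 and 2.47e-08). Hspa1b minus Hspa1a was 0.04 ± 0.07, and Hspa1b was the higher in 3 of 5 libraries (exact two-sided permutation of signs, p = 0.438, adjusted 0.477). Hspa1l, the testis gene beside them, stood at 0.35 ± 0.15 FPKM and also lay below the level. These levels carry a limit: 61.7%, 55.8% and 71.1% of the 75-base windows of Hspa1a, Hspa1b and Hspa1l occurred in other annotated genes, so reads could have been divided or dropped. The RefSeq promoter of Hspa1a, bases 250 to 1 before the RefSeq start on the minus strand at chr17:34972157-34972406, is shown because the gene is a textbook heat shock target. Capitals mark its 1 match to the short heat shock pattern, no 3-unit match was in the window, and the window of Hspa1b differed from it at 4 of 300 bases.

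Hspa1a: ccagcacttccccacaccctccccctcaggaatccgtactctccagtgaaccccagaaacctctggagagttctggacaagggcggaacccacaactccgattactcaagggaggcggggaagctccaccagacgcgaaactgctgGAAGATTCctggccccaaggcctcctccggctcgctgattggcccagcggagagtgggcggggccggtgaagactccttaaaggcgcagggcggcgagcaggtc

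Hsp110 proteins are the exchange factors of cytosolic Hsp70. Hspa4 had 45.6, 41.5, 75.2, 48.4 and 66.5 FPKM, with replicates 3 and 5 high and the others close together. The heat-inducible Hsph1 had 59.0, 46.4, 50.7, 48.9 and 50.3 FPKM. Their values overlapped: Hsph1 minus Hspa4 was -0.08 ± 0.38 on the log2 scale, and Hsph1 was the higher in 3 of 5 libraries (exact two-sided permutation of signs, p = 0.625, adjusted 0.625), and the mean turned to 0.03 without replicate 3. Hspa4l, their close relative, had 12.2, 12.8, 7.89, 9.24 and 9.05 FPKM, highest where Hspa4 was lowest. Hspa4l minus Hspa4 was -2.31 ± 0.62, the widest spread among the 12 pairs.

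J-domain proteins were the largest group, with 45 members. Of these, 37 lay above 1 FPKM and 5 below, against 52.3% and 41.4% of all genes tested. The class of Dnaja, built like the bacterial DnaJ, was led by Dnaja1, a partner of Hspa8, with 724, 830, 716, 805 and 770 FPKM. Its relative Dnaja2 had 74.7, 74.9, 84.0, 81.5 and 83.3 FPKM. Dnaja1 minus Dnaja2 was 3.25 ± 0.14 (log2 scale), an FPKM ratio of 8.53 to 11.1. Of the windows of Dnaja1, 26.2% were shared with other annotated genes, and none of those of Dnaja2. Dnaja4 lay below the level with 0.708, 0.275, 0.328, 0.152 and 0.266 FPKM, highest in replicate 1, and overlaps Wdr61 on the opposite strand over 44.1% of its exonic bases.

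In the Dnajb class, 10 of 13 lay above 1 FPKM and 2 below, with Dnajb8 listed at 0. The shares over all genes tested were 52.3% above and 41.4% below. Dnajb6, which holds back aggregation of polyglutamine proteins, had 67.4, 76.2, 75.5, 74.9 and 69.4 FPKM. Dnajb1, the heat-inducible Hsp40, had 20.8, 18.2, 20.9, 19.9 and 22.4 FPKM. It was above the level but far under Dnaja1: Dnajb1 minus Dnaja1 was -5.17 ± 0.18 on the log2 scale. Dnajb4 had 2.00, 2.81, 2.81, 4.25 and 3.64 FPKM, and Dnajb5, Dnajb2 and Dnajb7 stood at 2.29 ± 0.41, 2.00 ± 0.60 and 1.87 ± 0.47. Dnajb2 is a neuronal protein that sends clients to the proteasome, and Dnajb7 is known mainly from testis. Dnajb3, also known from testis, lay below the level at 0.65 ± 0.33 FPKM (limma adjusted p = 0.0293) but was called neither way without replicate 3 or replicate 4 (limma adjusted p = 0.0943 and 0.0989, the range over single omissions starting at 0.0147). Dnajb13, a protein of cilia and sperm tails, had 0.256 and 0.0591 FPKM in replicates 1 and 2 and was listed at 0 in the others.

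The Dnajc class holds proteins that share little beyond the J domain. Of its 28 genes, 24 were above 1 FPKM, 2 under it and 2 called neither way. Over all genes tested, 52.3% lay above and 41.4% below. Dnajc8, a splicing factor, had 440, 516, 514, 510 and 514 FPKM, with replicate 1 apart below the others. Dnajc7, which links Hsp70 to Hsp90, had 412, 422, 424, 427 and 440 FPKM. Its SD of 0.03 on the log2 scale was the lowest of the 61 members averaging 1 FPKM or more, and stood at percentile 0.592 of all such genes. Dnajc9, a partner in histone supply, stood at 123 ± 7.90 FPKM, Dnajc24, which acts in diphthamide synthesis, at 35.8 ± 2.37, and Dnajc21, a ribosome assembly factor, at 10.1 ± 0.77. Dnajc17, Dnajc14 and Dnajc18 stood at 12.8 ± 1.18, 14.7 ± 1.54 and 14.9 ± 1.64 FPKM. Dnajc14 shares 25.0% of its windows, with Ormdl2 on the opposite strand, and Dnajc30 22.8% with Bud23. Dnajc4 stood at 8.40 ± 1.02 FPKM, Dnajc16 at 3.70 ± 0.70, Dnajc28 at 2.64 ± 0.40 and Dnajc27, a Rab-like GTPase, at 2.47 ± 0.26.

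The other Dnajc genes spanned a wide range. Dnajc5, the cysteine-string protein of synaptic vesicles, stood at 22.0 ± 2.15 FPKM, whereas Dnajc6, the neuronal auxilin that uncoats clathrin, had 0.505, 1.51, 0.620, 1.13 and 0.871 FPKM and was called neither way. Gak, the auxilin of other cells, stood at 18.8 ± 2.35 FPKM. Dnajc12, a chaperone of the aromatic amino acid hydroxylases, had 9.72, 15.2, 9.23, 11.4 and 15.1 FPKM, high in replicates 2 and 5. Dnajc13, of endosomes, stood at 5.69 ± 1.21. Dnajc25 was called above the level by the narrowest margin at 1.27 ± 0.20 FPKM (log2 difference 0.18, limma adjusted p = 0.0488), and it was not called when any 1 library was left out (limma adjusted p between 0.0635 and 0.141). Dnajc22 was called neither way at 1.13 ± 0.24. Dnajc5b and Dnajc5g, both known mainly from testis, lay below the level: Dnajc5b was listed at 0.0631 and 0.0582 FPKM in replicates 2 and 4, Dnajc5g at 0.0561 in replicate 2, and both at 0 elsewhere.

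The small heat shock proteins had the lowest family median. Of the 8, 5 lay below 1 FPKM and 3 above, against 41.4% and 52.3% of all genes tested. Hspb11, at 30.3, 22.0, 20.9, 26.8 and 19.8 FPKM, was the highest, but it is an intraflagellar transport protein and not a typical member. Hspb8, which works with the co-chaperone Bag3 in autophagy, had 5.84, 6.21, 6.58, 4.48 and 8.36 FPKM. Bag3 itself stood at 3.88 ± 0.32. Hspb6 had 1.23, 3.32, 1.53, 1.41 and 1.81 FPKM, with replicate 2 apart above the others. Hspb1 (Hsp27), the best-known heat-inducible member, had 0.187, 0, 0.0690, 0.301 and 0.0616 FPKM, at most 6.24 reads at the implied depth. Hspb8 minus Hspb1 was 2.68 ± 0.40 (log2 scale), and Hspb8 was the higher in all 5 libraries. A processed copy, Hsp25-ps1, shares 47.3% of the 75-base windows of Hspb1. The muscle and heart forms Hspb2, Hspb3 and Hspb7 and the testis form Hspb9 stood at 0.292 ± 0.261, 0.0243 ± 0.0543, 0.0588 ± 0.0425 and 0.163 ± 0.129 FPKM, and Hspb3 was listed above 0 only in replicate 4. Cryab, a small heat shock protein under another name, stood at 6.24 ± 1.56 FPKM, and Hspb2 overlaps it on the opposite strand over 30.2% of its exonic bases.

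Of the 12 pairs compared, 10 had the same sign in every library. An exact permutation test that flips signs within libraries, two-sided, gave each of these the smallest p that its 32 sign patterns allow, and an adjusted p of 0.075, so no pair could pass 0.05. The exceptions were Hsph1 with Hspa4 and Hspa1b with Hspa1a, whose values overlapped.

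**Figure D3:**
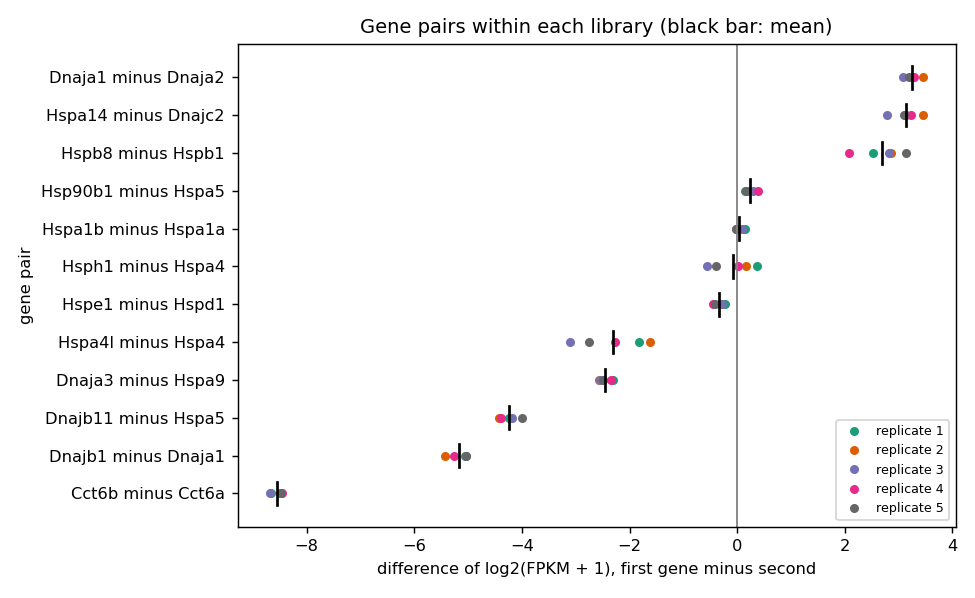
Difference of log2(FPKM + 1) between the genes of each pair, first gene minus second, on the horizontal axis; points are the 5 libraries and black bars their mean. The differences run from -8.55 for Cct6b minus Cct6a to 3.25 for Dnaja1 minus Dnaja2, and the points of Hsph1 minus Hspa4 fall on both sides of 0.

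The partners of these families that carry other names were expressed almost without exception. Of 63 co-chaperones and other folding factors, 61 lay above 1 FPKM and 2 below, with a median of 52.8 ± 2.62 FPKM, against the 52.3% and 1.75 ± 0.05 FPKM given above for all tested genes. Hspb11 belongs to this list and to the members. The Hsp90 co-chaperones Ptges3 (p23) and Stip1 (Hop) stood at 648 ± 87.7 and 562 ± 40.7 FPKM, and the Hsp90 activator Ahsa1 at 204 ± 6.29, whereas Cdc37, which brings kinases to Hsp90, stood at 27.5 ± 4.15. Bag1, a BAG-domain protein that binds Hsp70, and Bag6 stood at 9.82 ± 1.55 and 14.1 ± 1.50, under St13 (Hip) at 395 ± 14.7. Prefoldin hands actin and tubulin to the chaperonin, and its 6 subunits ran from Pfdn1 at 139 ± 6.96 to Pfdn5 at 554 ± 29.2. The ER chaperones Pdia6, Calr and Canx stood at 786 ± 47.5, 674 ± 63.6 and 330 ± 24.9, and the exchange factors Hyou1 and Sil1 at 20.8 ± 1.65 and 11.3 ± 0.455. The genes below were the lens crystallin Cryaa, listed at 0.0444 FPKM in replicate 1 and at 0 elsewhere, and Pdcl2, a germ cell protein, at 0.06 ± 0.07.

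Stress regulators and handling genes were counted in the same way, against 52.3% above and 41.4% below over all genes tested. Of 18 heat shock and unfolded protein response regulators, 13 were called above 1 FPKM, 3 were below and 2 were called neither way, with a median of 8.35 ± 0.78 FPKM. Hsf1 and Hsf2, the heat shock factors, stood at 17.8 ± 1.42 and 14.2 ± 0.83, their inhibitor Hsbp1 at 119 ± 7.40, and the stress factors Atf4, Xbp1 and Ddit3 at 88.3 ± 4.01, 5.47 ± 0.83 and 7.78 ± 1.55. Hsf4, a lens factor, was the lowest and was listed at 0.0312 FPKM in replicate 1 only. Of 18 immediate early genes, which rise within minutes of handling or dissociation, 5 were called above 1 FPKM, 7 were below, 5 were called neither way and Egr3 was listed at 0, with a median of 0.93 ± 0.15 FPKM. Fos had 1.37, 7.29, 3.23, 5.45 and 6.81 FPKM, lowest in replicate 1. Jun and Junb stood at 0.45 ± 0.13 and 0.03 ± 0.03 and Btg2, the highest of the list, at 7.39 ± 1.61.

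The spread of members between libraries differed with their level. For the 61 members averaging 1 FPKM or more, the SD of log2(FPKM + 1) had a median of 0.14, against 0.16 for the 10983 such genes. Of the 61, 40 lay below the median of those genes and 3 above their 90th percentile, a description with no test. Below their 10th percentile lay 6, close to the share that a percentile sets. The members were not matched to those genes by level. All 20 members over 100 FPKM lay below the median of those genes, and most of the 18 between 1 and 10 FPKM lay above it. Whether members are more even than other genes of their level was therefore not tested. Several chaperonin genes were low in replicate 1 and high in replicate 4. Over the 7 ring members with Hspd1 and Hspe1, the median deviation from a gene's own mean was -0.15 in replicate 1 and 0.14 in replicate 4, against -0.06 and 0.03 over all genes. Cct4 and Cct6a went the other way in replicate 1, at 0.10 and 0.02, and Hspa5 outside this group stood at 0.03 there. Replicates 1 and 4 were also the libraries with the lowest and highest summed FPKM. After each library was rescaled to the same sum, the same deviations were -0.06, -0.05, 0.03, 0.05 and 0.03 in replicates 1 to 5. Over all genes they were 0.02, -0.001, 0.01, -0.05 and 0.008. On that scale replicate 2 was about as low as replicate 1 for these chaperonin genes.

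The 3 members above the 90th percentile were Dnajb14, Hspb6 and Hspa4. Dnajb14 had 25.1, 24.7, 15.2, 14.2 and 15.3 FPKM, with replicates 1 and 2 high and the others together. Replicates 1 and 2 were also the libraries lowest for the mesenchyme markers (39.6 and 67.5 FPKM, against 116 to 142 in the others) and highest for the summed neuron markers (118 and 125, against 88.3 to 98.9) and neuroepithelial markers (419 and 397, against 327 to 388). The neuron sum was led by Tubb3, while Gap43 ran the other way, with 11.9 and 13.3 FPKM in replicates 1 and 2, against 20.5 to 23.4 in the others. Hspa4l was high in the same libraries as Dnajb14, and Hspa4 was highest in replicate 3, the library highest for the mesenchyme markers, but in replicates 4 and 5, with mesenchyme sums of 116 and 118, it had 48.4 and 66.5 FPKM. The part of other cells in these differences was not tested, and in whole-population RNA fewer cells of a type and less RNA per cell cannot be told apart.

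**Figure D4:**
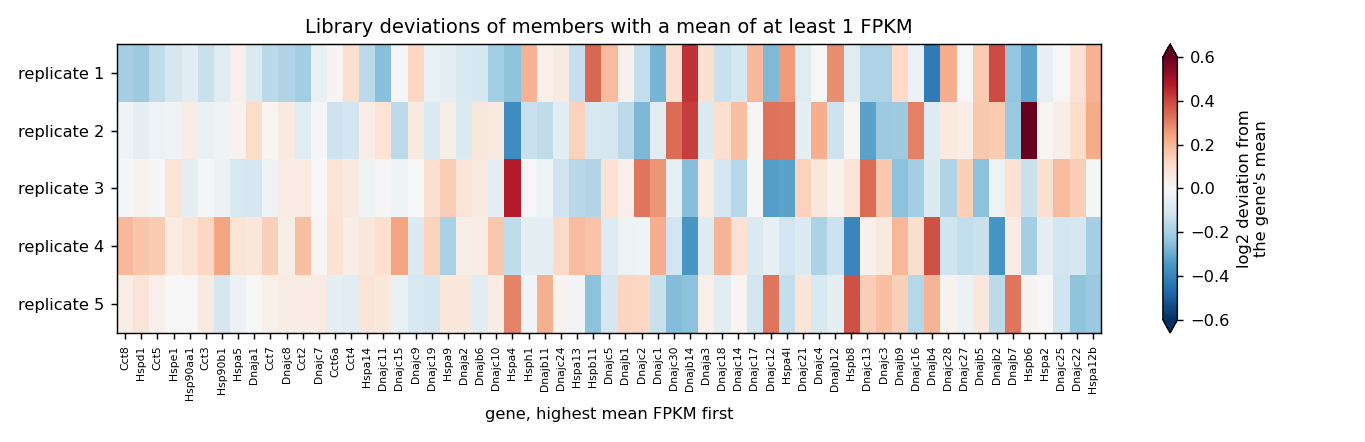
Deviation of each library from the gene's own mean of log2(FPKM + 1), by colour, for the 61 members averaging 1 FPKM or more, ordered by level from left to right. Replicate 1 is blue and replicate 4 red across most of the highest genes, and the strongest colours belong to Hspa4, Dnajb14 and Hspb6.

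How far a level can be trusted depends in part on shared sequence. In 44 of the 81 members no 75-base window of the longest coding transcript occurred in another annotated gene, and in 6 at least 50% did: Hspa1l, Hspa8, Hspa1a, Hspa1b, Hsp90aa1 and Dnaja4. Among the 62 members with under 10% of such windows, 49 lay above 1 FPKM and 8 below. Over all 81 members these counts were 59 and 15, and over all genes tested the shares were 52.3% and 41.4%. The 62 include Hsp90ab1, which was listed at 0 with 0.736% of its windows shared. Hspd1 shared 33.7%, mostly with the copy Hspd1-ps3, Hspe1 29.1% and Dnajb6 39.5%. Of the ring subunits, Cct6a shared 15.9% of its windows with Psph on the opposite strand, Cct7 5.96% and Cct8 5.09% with neighbours, and Cct2, Cct3, Cct4 and Cct5 none.

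**Figure D5:**
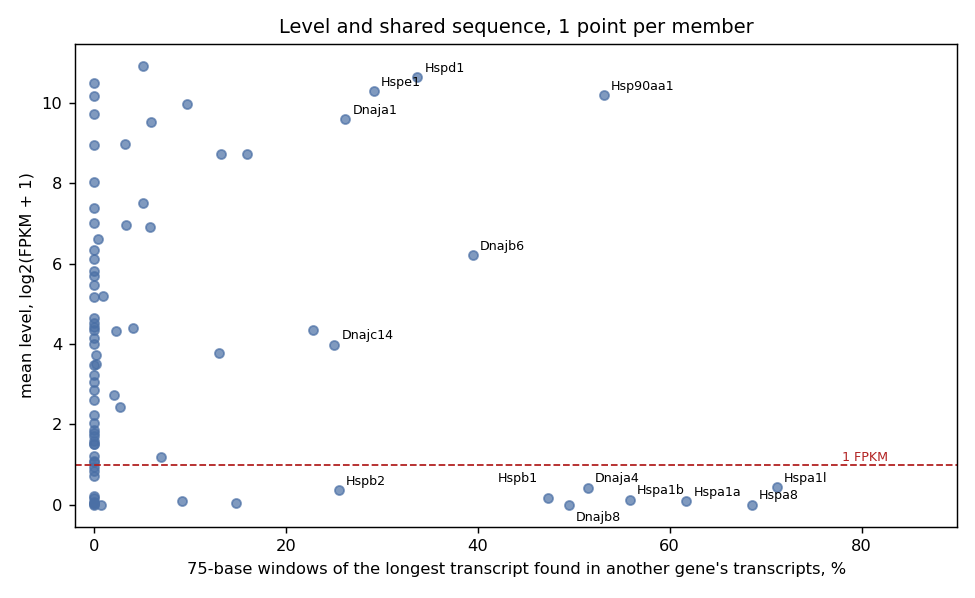
Mean level as log2(FPKM + 1) against the percentage of 75-base windows of the longest coding transcript that also occur in annotated transcripts of other genes, 1 point per member, with the dashed line at 1 FPKM. Hsp90aa1, Hspd1, Hspe1, Dnaja1 and Dnajb6 are high and share 26.2% to 53.1%, while Hspa1a, Hspa1b, Hspa1l, Hspa8, Dnaja4, Dnajb8, Hspb1 and Hspb2 lie under the line.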

How the data were processed

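Per the labels' protocols, cDNA primed at poly(A) was copied by template switching and went through 12 PCR cycles, then through 15 more after shearing and adapter ligation. Single 75-base reads came from a HiSeq 2000, on average 35 (in units of 1000000) for each sample. No molecular identifiers or strand are described, so copies and antisense reads could not be told apart. The authors deposited 1 table of FPKM. Tools listed, per the submitters' processing notes, are TopHat2 2.0.11 and Cuffdiff 2.2.1, besides cutadapt and CASAVA 1.8, with the build mm10. The annotation release is not given in the sources used here.

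Columns were matched to samples by replicate number, and positions came from GENCODE M21 (same build) by identifier, for all 81 members. On log2(FPKM + 1), which understates differences of low genes, limma 3.58.1 (R 4.3.3) tested each gene above 0 in at least 1 library against 1 FPKM, two-sided with a variance trend, and Benjamini-Hochberg adjustment ran over 19706 genes. In data simulated for this comparison on 19706 genes, 4.6% of 2000 genes at the level were called, and 98% of genes shifted by -0.8, 96% by -0.4, 88% by 0.4 and 94% by 0.8 were recovered (50 each). Pairs were tested by exact permutation of signs over 32 patterns. Implied reads took 200 bases off single-transcript genes longer than 800 bases under 0.15 FPKM, with totals searched from 15 to 45 in units of 1000000, and are estimates that cover counting only. Shared windows were searched in GENCODE M21 transcripts, both strands, and not in the whole genome. Promoter windows are from RefSeq (GRCm38.p6).

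The members and gene lists were chosen with earlier results of these data known. Named with every library's value were the 2 highest and the lowest non-zero members of each family, the pair genes, the 10 highest and the 5 of largest SD with a mean of at least 1 FPKM. The alternatives were other pseudocounts, scalings, levels, filters, limma settings and leaving out each library. The groups of 10 ER and 8 mitochondrial members were made after values were seen. No protein sequences were used here.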

Additional observations from a re-analysis of the deposited data

Results flagged for a closer look

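A library that stood apart was looked for in 98 checks, made on 78 member levels and on the family medians and pair differences. By Dixon's criterion for 5 values, 7 member levels had 1 library far from the others. Chance meets it in about 5% of groups of normally distributed values, a rate that does not hold for levels of a few reads. Hsp90b1 was high in replicate 4, at 1165 FPKM with the next library at 972. Dnajc8 was low in replicate 1, at 440 FPKM with the next at 510. Hspb6 was high in replicate 2, at 3.32 FPKM with the next at 1.81. The others rest on a few reads: Dnajb13 at 0.256 FPKM in replicate 1, Hspb3 at 0.122 in replicate 4, Dnajc5g at 0.0561 in replicate 2 and Cct8l1 at 0.0247 in replicate 5. Hspb3, Dnajc5g and Cct8l1 were above 0 in 1 library only, so they met the criterion by construction. No family median and no pair difference met the criterion.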

How the results depend on the processing

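The number of members above 1 FPKM was 57 to 58 when 1 library was left out and the number below 13 to 15, against 59 and 15 with all 5. Dropping genes that average under 0.1 FPKM left 7 members and 0 of the co-chaperone list below the level, since low genes leave the test, and the co-chaperone count below was 1 to 2 when 1 library was left out. With limma's unadjusted p under 0.05, the members counted were also 59 and 15. Calls of 12 members changed under some alternative, and of 5 (Dnajb3, Dnajc22, Dnajc25, Hspa12a and Hspa2) under an alternative other than the level. Against 2 FPKM the log2 difference turned to -0.0236 for Dnajb2, -0.0790 for Dnajb7, -0.40 for Dnajc25, -0.38 for Hspa2 and -0.11 for Hspb6, and against 0.5 FPKM to 0.11 for Dnajb3. Hsph1 minus Hspa4 ran from -0.20 to 0.0343 when 1 library was left out, positive without replicate 3. The other 11 pair differences kept their sign under every alternative run. Rescaled to a sum of 1000000 FPKM, the family medians were 614 (Cct), 1774 (Hspd1 and Hspe1), 1348 (Hsp90), 12.9 (Hspa and Hsph1), 60.4 (Dnaja), 4.83 (Dnajb) and 17.6 (Dnajc), which follows from the scaling. With members listed at 0 included, those of Hsp90 and of Hspa with Hsph1 were 993 and 5.81. Pseudocounts do not enter a median of FPKM. Levels under about 0.1 FPKM rest on a few reads, so differences among them are uncertain. Of genes with such means, only Hspa1b and Hspa1a were compared with each other, and no limit of detection was computed.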
